A study of Cavia porcellus with 44 samples.

Results

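Innate immune receptors and inflammasome genes were followed in the liver of guinea pigs fed a diet that induces non-alcoholic steatohepatitis and given high or low doses of vitamin C (vitC). The genes were taken by symbol from the deposited table of 7747 variance-stabilized genes: toll-like receptors, NOD-like receptors, C-type lectins, siglecs, Fc receptors, MS4A and S100A proteins, caspases, IRAK kinases and LY antigens, and the single genes MRC1, MSR1, MYD88 and PYCARD. CLEC7A and MS4A1 were left out by the rule. This gave 60 of 7747 symbols. The study asked whether vitC intake affects disease progression, and whether a change of feed, vitC or both resolves established disease.

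Liver RNA of 44 animals in 6 groups was sequenced after 32 weeks, 1 library per animal. LFH animals (n = 8) ate a low fat feed (3.8% fat, no cholesterol, no sucrose) with 2000 mg vitC per kg throughout, and HFH animals (n = 8) a high fat feed (20% fat, 0.35% cholesterol, 15% sucrose) with the same vitC throughout. Animals of the other 4 groups all began with 16 weeks of the high fat feed at 50 mg vitC per kg. For the remaining 16 weeks that feed was kept in HFL/HFL (n = 10), whereas HFL/HFH animals (n = 6) ate the high fat feed with 2000 mg vitC per kg, HFL/LFL animals (n = 6) the low fat feed with 50 mg per kg, and HFL/LFH animals (n = 6) the low fat feed with 2000 mg per kg. The groups therefore hold no animal on low fat feed with low vitC from the start, and HFL/HFL differed from HFH in vitC during all 32 weeks.

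Pattern recognition receptors detect microbial molecules and molecules from damaged cells. Toll-like receptors signal from the cell surface or from endosomes through MYD88 and IRAK kinases to NF-kB, whereas inflammasomes are assembled in the cytosol from a sensor, the adaptor PYCARD (ASC) and inflammatory caspases, which release interleukin-1 family cytokines and open gasdermin pores. C-type lectins, siglecs, scavenger receptors and Fc receptors sit on macrophages, dendritic cells and other leukocytes, where they take up ligands or raise and dampen activation. In the liver they are known from Kupffer cells, recruited macrophages and, for the mannose receptor MRC1, the sinusoidal endothelium.

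Values are CPM, counts scaled to a common library size with edgeR's effective library sizes, and the total count per animal lay between 21133807 and 35427724. By these sizes a count of 3, taken as the floor, equals 0.0626 to 0.170 CPM, which covers counting error only. All 60 members passed the minimum of 200 counts in total, 49 with a mean of 1 CPM or more and 11 below it. The hepatocyte genes ALB and SERPINA1 together reached at least 19809 CPM in every animal. The authors named guinea pig genes by human orthologue symbols, and 7 pairs of members hold the same counts in every animal: CASP4 and CASP5, LY6G6F and LY6G6F.LY6G6D, LY75 and LY75.CD302, MS4A6A and MS4A6E, S100A13 and S100A14, SIGLEC12 and SIGLEC8, and SIGLEC14 and SIGLEC5. The 60 symbols thus stand for 53 distinct profiles, and TLR3 has the counts of FAM149A, which is no member. S100A10.1, CLEC4A.1 and CLEC4A.2 are rows whose symbol carries a suffix. Which guinea pig gene each of them is was not resolved. TLR2, NLRP3, CASP1, MARCO and CLEC4F were not analysed here.

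The comparison of HFH with LFH asked what long-term high fat feed did at high vitC. Of the 60 members, 43 passed an adjusted p of 0.05 (edgeR quasi-likelihood F test with Benjamini-Hochberg adjustment over 7750 symbols), against 49.3% of all symbols tested. The direction was unequal: 40 members were higher in HFH, against 27.7% of all symbols, and 3 were lower, against 21.7%. With symbols of the same counts taken once, 34 of 53 were higher and 3 lower. The median log2 fold change was 1.08 over the members and 0.06 over all symbols. In 20 members the 8 HFH animals lay entirely above or entirely below the 8 LFH animals, against 16.9% of all symbols. The CPM values here are bulk tissue levels, so more cells of a type and more RNA per cell cannot be told apart.

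Among the S100 proteins, small calcium-binding proteins, 3 of 7 members were higher in HFH and none lower. S100A10.1 carries the symbol of the annexin A2 partner S100A10. It was at 7.83 to 29 CPM (median 17.7) in LFH and at 84.1 to 160.1 CPM (median 120.4) in HFH, a log2 fold change of 2.72 ± 0.26 (SE, adjusted p = 2.33e-11), with no overlap between the groups. S100A4, a protein of motile mesenchymal and myeloid cells, went from 2.31 to 10.2 CPM (median 5.83) in LFH to 13.6 to 58 CPM (median 21) in HFH, again without overlap (2.18 ± 0.36, SE, adjusted p = 2.86e-06). S100A1 was the third member that was higher. The calprotectin genes S100A8 and S100A9, abundant in neutrophils and monocytes, did not pass the test in this comparison, with log2 fold changes of 0.38 ± 0.62 (adjusted p = 0.638) and 0.27 ± 0.68 (adjusted p = 0.765). The shared counts of S100A13 and S100A14 differed by -0.02 ± 0.13 (SE, adjusted p = 0.919).

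In the MS4A family of membrane proteins 3 of 4 members were higher. MS4A6A, which is expressed by myeloid cells and has the same counts as MS4A6E here, was at 1.05 to 6.2 CPM (median 3.15) in LFH and at 13.8 to 29.1 CPM (median 25.6) in HFH. Every HFH animal was above every LFH animal, and the log2 fold change of 2.94 ± 0.30 (SE, adjusted p = 1.16e-10) was the largest among members with a mean of at least 1 CPM. MS4A2, the beta chain of the high-affinity IgE receptor of mast cells and basophils, was at 2.32 to 7.77 CPM (median 3.7) in LFH and 7.78 to 19.4 CPM (median 15.1) in HFH (1.77 ± 0.27, SE, adjusted p = 5.38e-07). The lowest HFH animal was just above the highest LFH animal. The mast cell gene HDC was at 0 to 0.572 CPM in LFH and 0 to 0.701 CPM in HFH, and CPA3 had fewer than 200 counts in total. FCER1G, the signalling chain shared by IgE and IgG receptors and several lectins, was higher in HFH as well (0.64 ± 0.22, SE, adjusted p = 0.0148). Its ranges overlapped, 36 to 87.8 CPM (median 47.9) in LFH and 37.2 to 149 CPM (median 77) in HFH, and without HFH animal 88 it no longer passed (0.442, adjusted p = 0.0818).

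All 5 siglecs, sialic acid-binding receptors, were higher in HFH. SIGLEC14, whose counts are also those of SIGLEC5 and which forms a pair of activating and inhibitory receptors with it on myeloid cells, went from 0.683 to 3.63 CPM (median 1.36) in LFH to 4.97 to 13.8 CPM (median 7.2) in HFH (2.41 ± 0.28, SE, adjusted p = 1.29e-09). The groups did not overlap. The joint counts of SIGLEC12 and SIGLEC8, the latter known from eosinophils and mast cells, rose by 1.76 ± 0.33 (SE, adjusted p = 1.67e-05). SIGLEC1, the macrophage receptor sialoadhesin, was at 2.39 to 15.9 CPM (median 9.41) in LFH and at 13.1 to 32.6 CPM (median 24.5) in HFH (1.42 ± 0.34, SE, adjusted p = 5.51e-04), so that a few animals of either group shared a range. MSR1, the class A scavenger receptor that takes up modified lipoproteins, rose by 0.89 ± 0.19 (SE, adjusted p = 9.06e-05) from 41.4 to 82.4 CPM (median 59.5) in LFH to 54.3 to 173 CPM (median 112) in HFH.

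Of the 14 C-type lectins and mannose receptors, 10 were higher and 2 lower. CLEC12A, an inhibitory myeloid receptor, was at 0.315 to 2.14 CPM (median 0.91) in LFH and 4.54 to 11.9 CPM (median 6.57) in HFH, and its log2 fold change was 2.78 ± 0.33 (SE, adjusted p = 4.00e-09). CLEC5A, an activating myeloid receptor, was at 1.1 to 4.13 CPM (median 3.08) in LFH and 5.74 to 14.5 CPM (median 9.51) in HFH (1.64 ± 0.23, SE, adjusted p = 1.27e-07). LY75, the endocytic receptor DEC-205 of dendritic cells, which shares its counts with the read-through symbol LY75.CD302, was at 0.364 to 3.82 CPM (median 1.51) in LFH and 4.13 to 9.71 CPM (median 6.52) in HFH (1.92 ± 0.33, SE, adjusted p = 5.23e-06). In all 3 genes the HFH animals lay above the LFH animals without overlap. Among the other members that were higher, CLEC4E (Mincle), a sensor of glycolipids and dead cells, rose by 1.19, CLEC4C by 1.48 and the secreted CLEC11A by 2.27 on the log2 scale. CLEC2L, CLEC4A.1 and CLEC4A.2 were also called but were below 1 CPM on average. CLEC4A.2 had at most 1 count in any LFH animal, and against the floor it was at least 2.78-fold higher in HFH. CLEC3B and CLEC4A did not pass the test.

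The 2 lectins that were lower are both endocytic receptors. MRC1, the mannose receptor, was at 117 to 143 CPM (median 134) in LFH and at 51.6 to 77.1 CPM (median 61) in HFH, so that all HFH animals were below all LFH animals, and the log2 fold change was -1.05 ± 0.12 (SE, adjusted p = 1.27e-09). CLEC9A, which binds actin exposed by dead cells and marks a cross-presenting dendritic cell subset, was at 36.5 to 78.9 CPM (median 58.5) in LFH and at 21.2 to 40.9 CPM (median 26.8) in HFH (-1.03 ± 0.17, SE, adjusted p = 3.09e-06), with a small overlap. Of 3 measured markers of the liver sinusoidal endothelium, LYVE1 was lower in HFH (28.1 to 104 CPM, against 216 to 376 CPM in LFH), while PECAM1 and KDR did not pass the test, and the summed markers were at 464 to 676 CPM in LFH and 329 to 429 CPM in HFH. Of 4 dendritic cell markers 1, FLT3, was higher and none lower. The summed Kupffer cell markers CD5L, C1QA and C1QB were at 761 to 1693 CPM in LFH and 388 to 834 CPM in HFH, with 2 of 3 lower. The part of these cells in the values of MRC1 and CLEC9A was not tested.

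**Figure D1:**
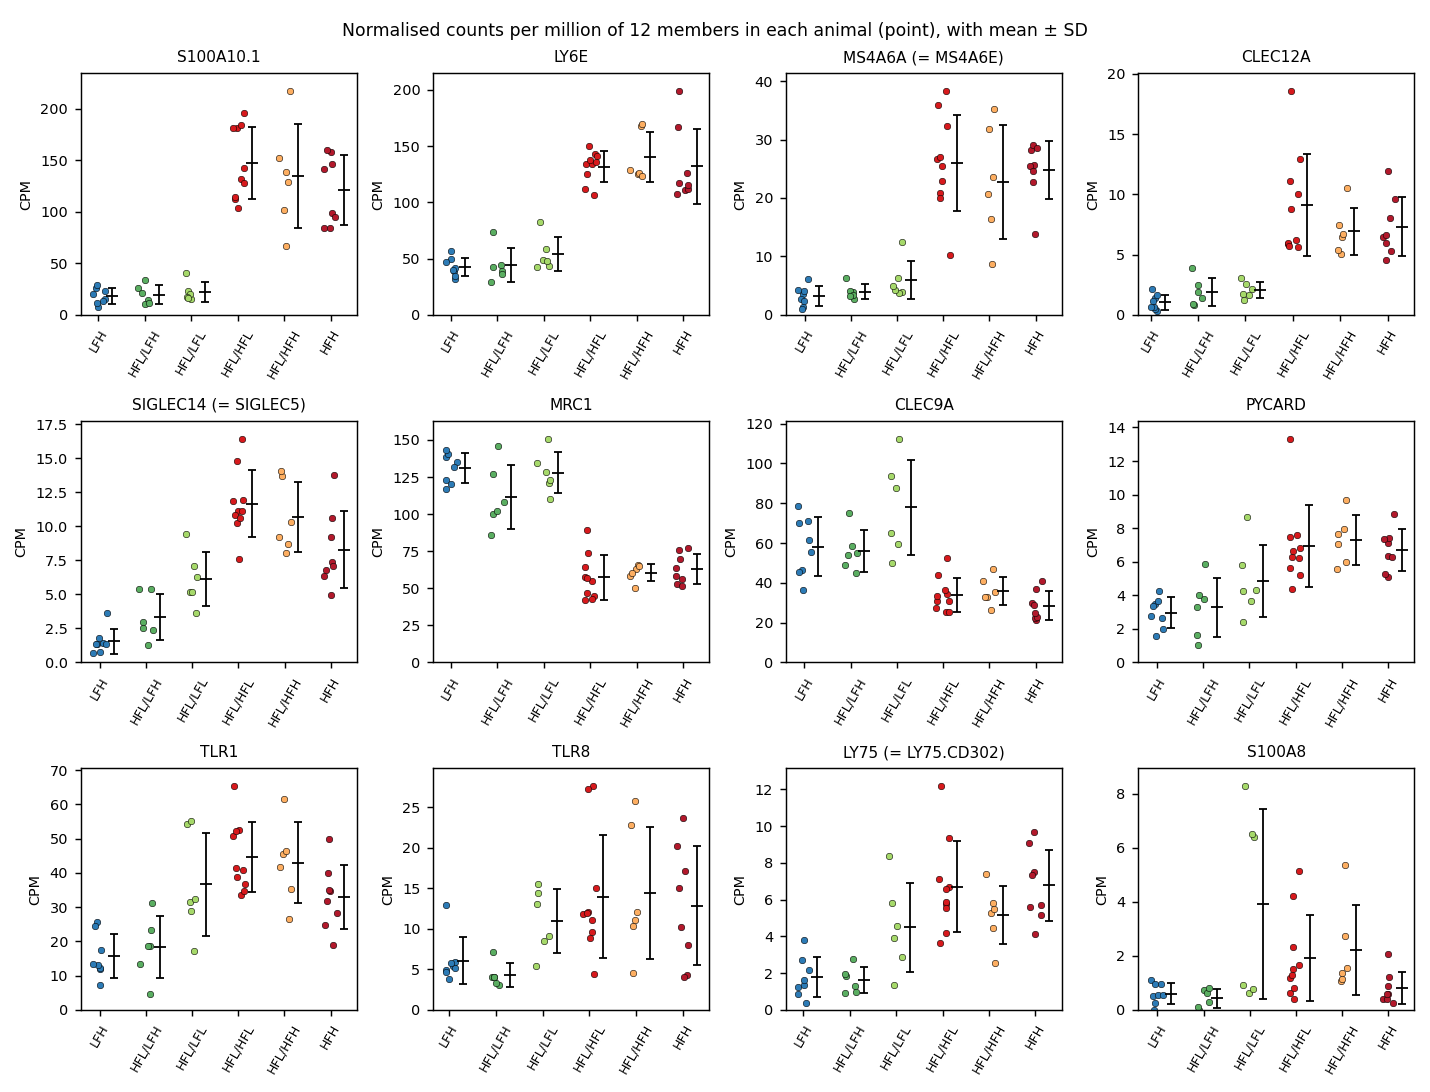
CPM of 12 members (vertical axis, linear from 0) in each of 44 animals, by group on the horizontal axis. Points are animals and the black marks beside them give the mean and SD of the group. MRC1 and CLEC9A have lower means in the high fat groups and S100A10.1, LY6E and CLEC12A are higher in all 24 high fat animals than in all 20 low fat animals, whereas S100A8 is highest in 3 HFL/LFL animals.

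Of 6 toll-like receptors, 4 were higher in HFH. TLR7, an endosomal receptor for single-stranded RNA, was at 1.91 to 3.85 CPM (median 3.05) in LFH and 3.75 to 15 CPM (median 10.3) in HFH (1.69 ± 0.29, SE, adjusted p = 5.72e-06). TLR8, with the same kind of ligand, was at 3.87 to 13 CPM (median 5.27) in LFH and 4.05 to 23.7 CPM (median 12.6) in HFH (1.07 ± 0.35, SE, adjusted p = 0.0103), and TLR1, which pairs with TLR2 to bind bacterial lipopeptides, at 7.37 to 25.8 CPM (median 13.2) in LFH and 19 to 50 CPM (median 33.2) in HFH (1.06 ± 0.26, SE, adjusted p = 7.00e-04). The ranges of all 3 overlapped between the groups. TLR10, below 1 CPM, was the fourth. TLR4, the receptor for lipopolysaccharide, did not pass the test (0.34 ± 0.32, SE, adjusted p = 0.4) and was at 2.73 to 14.2 CPM (median 9.96) in LFH and 2.52 to 17.7 CPM (median 13.1) in HFH. TLR3, a receptor for double-stranded RNA, gave -0.03 ± 0.15 (SE, adjusted p = 0.905), with counts that cannot be told apart from those of FAM149A.

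Of 4 adaptors and co-receptors of these receptors, 1 was lower and none higher. MYD88, the adaptor of most toll-like receptors, was at 61.9 to 96.8 CPM (median 81.3) in LFH and 68.7 to 90.5 CPM (median 77.9) in HFH, a log2 fold change of -0.04 ± 0.11 (SE, adjusted p = 0.796). The kinase IRAK4 gave 0.31 ± 0.15 (SE, adjusted p = 0.0725), and LY86, the partner of the receptor-like protein CD180, -0.14 ± 0.27 (SE, adjusted p = 0.698), neither passing the test. IRAK2, which acts next to IRAK4, was lower in HFH by -0.46 ± 0.12 on the log2 scale (SE, adjusted p = 9.94e-04), from 82.5 to 114 CPM (median 91.5) in LFH to 53.4 to 83.8 CPM (median 69.7) in HFH, and the ranges overlapped slightly.

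Of the 5 inflammasome genes measured, 4 were higher in HFH. PYCARD, the adaptor, was at 1.57 to 4.28 CPM (median 3.09) in LFH and at 5.09 to 8.83 CPM (median 6.73) in HFH, without overlap (1.17 ± 0.26, SE, adjusted p = 1.85e-04). CASP12, an inflammatory caspase, rose by 0.94 ± 0.35 (SE, adjusted p = 0.0227), but without HFH animal 88 it no longer passed (0.778, adjusted p = 0.0574). The shared counts of CASP4 and CASP5, human sensors of cytosolic lipopolysaccharide, were at 0.209 to 1.31 CPM (median 0.83) in LFH and 0.167 to 4.75 CPM (median 1.35) in HFH. Their log2 fold change of 1.08 ± 0.45 (SE, adjusted p = 0.0432) lost the call when any one of LFH animals 25, 27, 46, 56 and 64 or HFH animals 14, 18 and 88 was left out, with log2 fold changes of 0.671 to 1.25 over all animals left out in turn. NLRC4, the sensor of bacterial flagellin and secretion systems, did not pass the test (-0.68 ± 0.37, SE, adjusted p = 0.125), and LFH animal 79 was far above the others.

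The peptidoglycan sensors were both higher. NOD1 was at 5.78 to 11.9 CPM (median 9.14) in LFH and 12.4 to 25.3 CPM (median 20.4) in HFH, without overlap (1.15 ± 0.16, SE, adjusted p = 6.29e-08). NOD2 was at 0.845 to 2.1 CPM (median 1.17) in LFH and 2.04 to 4.9 CPM (median 3.08) in HFH, with a small overlap (1.33 ± 0.23, SE, adjusted p = 7.99e-06). The mitochondrial NLRX1 gave -0.13 ± 0.10 (SE, adjusted p = 0.311). Among the caspases of apoptosis, the initiators CASP8 and CASP10 and the executioner CASP6 were higher, by 0.81 ± 0.13, 0.55 ± 0.15 and 0.79 ± 0.11 (SE), and CASP8 was at 10.7 to 17.9 CPM (median 14.4) in LFH and 22.2 to 31.1 CPM (median 25.3) in HFH without overlap.

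LY6E, an interferon-inducible surface protein, had the smallest adjusted p of all members. It was at 31.6 to 56.7 CPM (median 40.8) in LFH and at 108 to 199 CPM (median 116) in HFH (1.64 ± 0.15, SE, adjusted p = 8.20e-12), the lowest HFH animal well above the highest LFH animal. LY6H, known from neurons, rose by 0.94 ± 0.31 (SE, adjusted p = 0.01), and without HFH animal 6 it did not pass (0.687, adjusted p = 0.0557). The shared counts of LY6G6F and LY6G6F.LY6G6D, below 1 CPM, passed narrowly (adjusted p = 0.0496), and LY6G5C and LY6G6D did not pass.

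The leukocyte genes PTPRC, LAPTM5 and CORO1A moved with these members: all 3 were higher in HFH, with a median log2 fold change of 0.84, and their summed level was 98.9 to 196 CPM in LFH and 154 to 384 CPM in HFH. TREM2, LGALS3 and CD9, markers of lipid-associated macrophages, were higher too, with sums of 23.9 to 73 CPM and 410.2 to 716 CPM. None of 5 neutrophil markers passed the test. The hepatocyte markers ALB and SERPINA1 were both lower. Of the other lists, 1 of 2 macrophage markers and 3 of 3 cholangiocyte markers were higher, 1 of 5 T cell markers was lower, and of 3 stellate cell markers 1 was higher and 1 lower. The part of the leukocyte, macrophage and hepatocyte levels in the members' values was not tested.

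**Figure D2:**
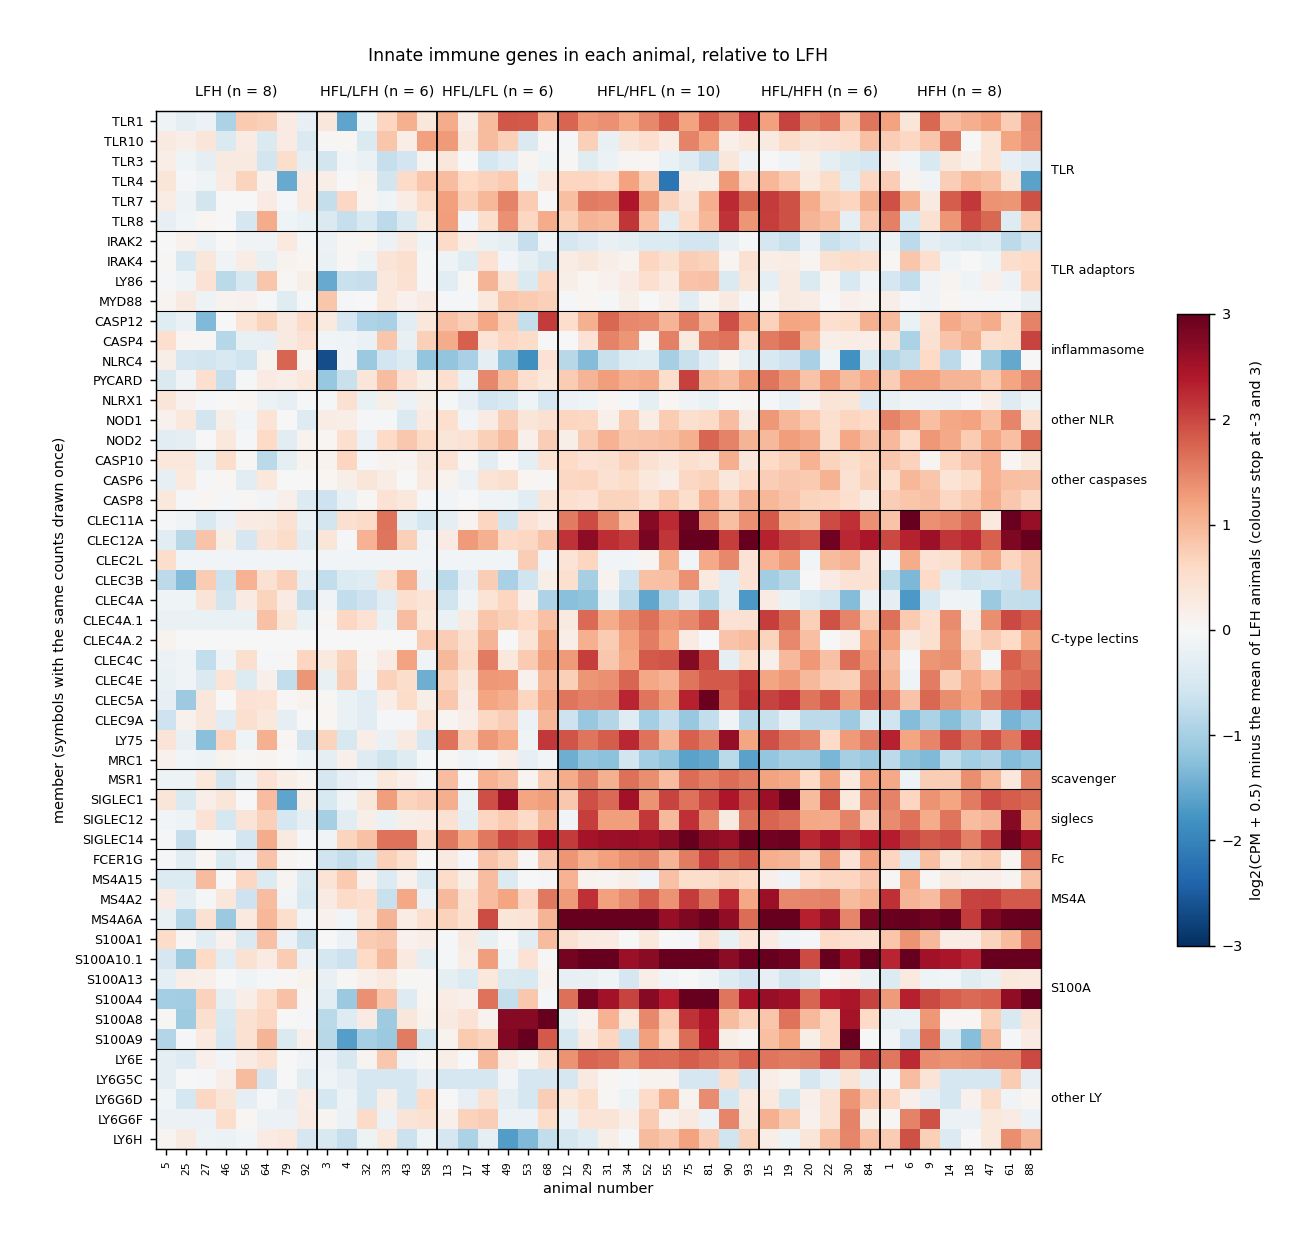
Level of the members in each animal, as log2(CPM + 0.5) minus the mean of the 8 LFH animals, with 52 of the 53 profiles (1 row for symbols with the same counts) grouped by role and animals grouped by diet. Red is above and blue below LFH, and colours stop at -3 and 3. The right 3 blocks, the high fat groups, are red for most lectins, siglecs and MS4A genes and blue for MRC1 and CLEC9A, and S100A8 is highest in 3 HFL/LFL animals.

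Other genes of the same pathways, listed by name and not members, were tested beside them. Of 49 listed, 19 could be tested, and 6 were higher in HFH, 1 lower and 12 not called, with a median log2 fold change of 0.08. TRAF3, a regulator of toll-like receptor and interferon signalling, rose by 1.41, the pore protein GSDMD by 0.96, the ATP receptor P2RX7, a trigger of NLRP3, by 0.74, the NF-kB kinase subunit IKBKG by 0.59, the NF-kB inhibitor TNFAIP3 by 0.51 and TAB1 by 0.35 on the log2 scale. The kinase TBK1 was lower (-0.17, adjusted p = 0.036). The transcript of the inflammasome substrate IL1B did not pass the test (-0.11, adjusted p = 0.818).

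The feed was compared again after the intervention, at high vitC in HFL/HFH against HFL/LFH and at low vitC in HFL/HFL against HFL/LFL. These comparisons share no animal with each other or with HFH against LFH. At high vitC, 38 of 60 members passed (35.9% of all symbols), 35 higher and 3 lower on high fat feed, against 19.4% and 16.5% of all symbols, and the median log2 fold change was 1.11, against 0.01 over all symbols. At low vitC, 25 members passed (37.8% of all symbols), 20 higher and 5 lower, against 19.7% and 18.1%, with a median of 0.53 against 0.03. The ranges did not overlap in 18 members at high vitC (16.2% of all symbols) and in 8 at low vitC (9.9% of all symbols).

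Markers of several cell types moved with the members in both comparisons. All 3 leukocyte genes were called higher on high fat feed, with median log2 fold changes of 0.77 at high vitC and 0.66 at low vitC. Their sums were 237 to 341 CPM in HFL/HFH against 99.2 to 206 CPM in HFL/LFH, and 259 to 444 CPM in HFL/HFL against 155 to 248 CPM in HFL/LFL. All 3 lipid-associated macrophage markers were higher too (medians 2.90 and 2.30), with sums of 349 to 665 against 56.3 to 146 CPM and of 522 to 846 against 121 to 254 CPM in the same order, and so were all 3 cholangiocyte markers (medians 2.65 and 2.005). Of 2 hepatocyte markers, ALB was lower at high vitC and both were lower at low vitC, and the Kupffer cell marker CD5L was lower in each, 1 of 3 of its list. Of 2 macrophage markers, AIF1 was higher in each (medians of the list 1.11 and 0.87), with sums of 55.1 to 125 against 36.2 to 81.3 CPM and of 78.3 to 183 against 49.97 to 108 CPM. Of 4 dendritic cell markers, FLT3 was higher in each and none lower, and the sums overlapped, at 16.8 to 24.4 against 12.8 to 32.7 CPM and 13.5 to 34.3 against 15.4 to 31.1 CPM. In both comparisons, of 3 stellate cell markers PDGFRB was higher and LRAT lower. The T cell marker CD3E, 1 of 5, was lower at high vitC. The part of these cells in the members' values was not tested.

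Over the 3 feed comparisons, 19 members were higher on high fat feed each time, 3 were lower each time, 14 were higher in both comparisons at high vitC but not called at low vitC, 7 were higher only in HFH against LFH, 5 were called in a single one of the other comparisons and 12 in none. S100A10.1 differed by 2.78 ± 0.30 at high vitC and by 2.73 ± 0.29 at low vitC (SE, adjusted p = 1.44e-09 and 1.04e-09). S100A4 differed by 2.095 and 2.16, MS4A6A by 2.52 and 2.12, CLEC12A by 1.87 and 2.14, and LY6E by 1.66 and 1.29, in the same order. CLEC12A, LY6E and S100A10.1 were higher in all 24 high fat animals than in all 20 low fat animals. This is 5% of the members, close to the 3.96% of all symbols that were apart in this way.

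MRC1 kept its difference in both comparisons without overlap of the ranges. It was at 50.5 to 65.8 CPM (median 61.8) in HFL/HFH against 85.9 to 146 CPM (median 105) in HFL/LFH (-0.88 ± 0.14, SE, adjusted p = 2.37e-06), and at 42.4 to 89.4 CPM (median 56.1) in HFL/HFL against 111 to 151 CPM (median 126) in HFL/LFL (-1.15 ± 0.12, SE, adjusted p = 8.68e-10). All animals on low fat feed were thus at 85.9 CPM or more, while the highest high fat animal, in HFL/HFL, was at 89.4 CPM. Of the 3 endothelial markers, LYVE1 was lower at high vitC (-1.46 ± 0.25, SE, adjusted p = 9.41e-06), and LYVE1 (-1.22 ± 0.21, SE, adjusted p = 1.78e-05) and KDR were lower at low vitC. Their sums were 278 to 385 CPM in HFL/HFH against 417 to 624 CPM in HFL/LFH, and 297 to 448 CPM in HFL/HFL against 464 to 624 CPM in HFL/LFL, without overlap in either. Their part in the values of MRC1 was not tested. CLEC9A was lower by -0.65 ± 0.20 and -1.20 ± 0.17 (SE, adjusted p = 0.00838 and 5.21e-07), and IRAK2 by -0.46 ± 0.13 and -0.32 ± 0.12 (SE, adjusted p = 0.00629 and 0.0284). At low vitC the call of IRAK2 was lost without HFL/HFL animal 75 or HFL/LFL animal 13 or 17, with an adjusted p of up to 0.266.

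The other genes that were higher in each of the 3 comparisons include CLEC5A, MSR1, FCER1G, SIGLEC14 with SIGLEC5, SIGLEC12 with SIGLEC8, MS4A2, CLEC11A, LY6H and the caspases CASP6, CASP8 and CASP10. CLEC5A differed by 1.86 ± 0.27 at high vitC and 1.17 ± 0.24 at low vitC (SE, adjusted p = 4.68e-07 and 1.64e-04), and FCER1G by 1.01 ± 0.26 and 1.02 ± 0.24 (SE, adjusted p = 0.00172 and 6.35e-04). CASP8 differed by 0.68 ± 0.15 and 0.74 ± 0.13. SIGLEC14 differed by 1.68 ± 0.31 and 0.93 ± 0.27 (SE, adjusted p = 2.46e-05 and 0.00634). MS4A2 at low vitC (0.73 ± 0.27, SE, adjusted p = 0.0331) lost its call when any one of HFL/HFL animals 29, 75 and 90 or HFL/LFL animals 13, 17, 44 and 53 was left out, with an adjusted p of up to 0.0879. LY6H at high vitC lost it without HFL/HFH animal 30 (adjusted p = 0.0746), CASP6 at low vitC without HFL/LFL animal 17 (0.0624), and CASP10 at high vitC without HFL/HFH animal 20 or HFL/LFH animal 3 or 32 (up to 0.0759) and at low vitC without HFL/LFL animal 44 or 53 (up to 0.0565).

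The 14 members that were higher in both comparisons at high vitC but not called at low vitC include TLR1, TLR7, TLR8, PYCARD, CASP12, NOD1 and NOD2. TLR1 was at 26.5 to 61.7 CPM (median 43.7) in HFL/HFH against 4.61 to 31.3 CPM (median 18.7) in HFL/LFH (1.23 ± 0.30, SE, adjusted p = 0.00109), but at 33.6 to 65.3 CPM (median 41.2) in HFL/HFL against 17.2 to 55.2 CPM (median 32) in HFL/LFL (0.29 ± 0.26, SE, adjusted p = 0.416). The HFL/LFL animals spread up to the high fat values, and the HFL/LFH animals stayed mostly below them. The same pair of differences was 1.31 and 0.61 for TLR7, 1.75 and 0.34 for TLR8, 1.16 and 0.52 for PYCARD, 1.43 and 0.35 for CASP12, 0.82 and 0.17 for NOD1, 0.70 and 0.55 for NOD2, 1.66 and 0.58 for LY75 and 1.50 and 0.38 for SIGLEC1. NOD2 at high vitC (adjusted p = 0.0347) lost its call without HFL/HFH animal 19, 20 or 30 or HFL/LFH animal 3 or 32, with an adjusted p of up to 0.0965. At low vitC none of the toll-like receptors, inflammasome genes or NOD-like receptors passed.

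Whether these effects of feed differed between vitC levels was tested as the interaction of feed and vitC over the 4 intervention groups. A positive value means that the log2 fold change of high fat minus low fat feed was higher at high vitC. For a member lower on high fat feed at both levels, this is a smaller decrease at high vitC. No member passed with edgeR (adjusted p of at least 0.245), and no symbol did (0%). DESeq2 and limma also called 0 members. At an unadjusted p under 0.05 there were 11 members, all positive, against 8.23% of all symbols in either direction and 4.61% with a positive value. S100A8 had the smallest p (3.38 ± 0.94, SE, unadjusted p = 8.90e-04, adjusted p = 0.245), followed by S100A9 (3.22 ± 1.04, adjusted p = 0.388), NOD1 (0.65 ± 0.24, adjusted p = 0.444), TLR8 (1.40 ± 0.54, adjusted p = 0.457) and TLR1 (0.94 ± 0.39, adjusted p = 0.498). A member called at high vitC and not at low vitC is therefore not shown to differ between them.

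**Figure D3:**
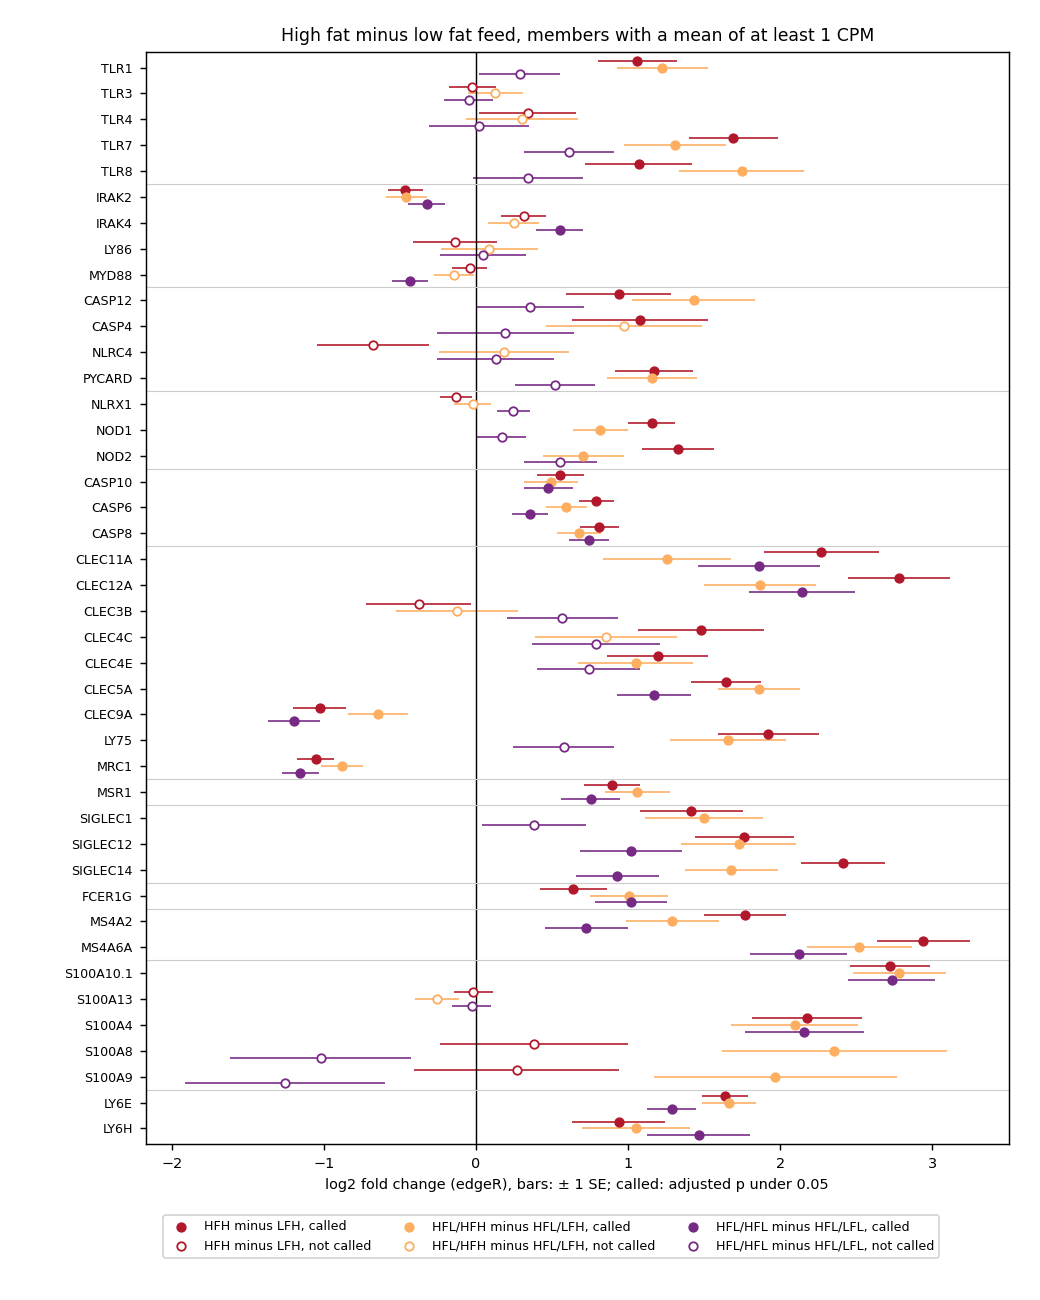
Log2 fold change of high fat minus low fat feed (horizontal axis) for the members shown that have a mean of at least 1 CPM (vertical axis, symbols with the same counts drawn once), in 3 comparisons that share no animals. Filled points passed an adjusted p of 0.05, open points did not, and bars are 1 SE. For S100A10.1, S100A4, CASP8 and MRC1 the 3 points lie close together, while for TLR1, TLR8, LY75 and SIGLEC1 the point at low vitC is nearer to 0 and open.

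S100A8 and S100A9 followed another order. S100A8 was at 1.08 to 5.38 CPM (median 1.47) in HFL/HFH and at 0 to 0.824 CPM (median 0.464) in HFL/LFH, a log2 fold change of 2.36 ± 0.74 (SE, adjusted p = 0.0106), and S100A9 at 1.05 to 12.3 CPM (median 2.16) in HFL/HFH and at 0 to 4.08 CPM (median 0.33) in HFL/LFH (1.97 ± 0.80, SE, adjusted p = 0.0497). The call of S100A9 rested on single animals: it was lost without any one of HFL/HFH animals 15, 19 and 30 or HFL/LFH animals 3, 4, 32, 33 and 58, with log2 fold changes of 1.05 to 3.61 and an adjusted p of up to 0.315. Of the 5 neutrophil markers, CXCR2 was called higher in this comparison (2.02 ± 0.80, SE, adjusted p = 0.0458), the median log2 fold change was 0.77, and the sums were 141 to 230.0 CPM in HFL/HFH and 108 to 259 CPM in HFL/LFH. Their part in the values of S100A8 and S100A9 was not tested. At low vitC both genes had negative values that did not pass, -1.02 ± 0.59 and -1.25 ± 0.66 (SE, adjusted p = 0.177 and 0.132), and 1 of the 5 neutrophil markers, MPO, was called higher in HFL/HFL, with a median of 0.22 over the list. MYD88 was lower on high fat feed at low vitC, 64.1 to 96.4 CPM (median 81.7) in HFL/HFL against 76.3 to 142 CPM (median 116) in HFL/LFL (-0.43 ± 0.12, SE, adjusted p = 0.00317), and did not pass at high vitC (-0.15 ± 0.13, SE, adjusted p = 0.419). IRAK4 was higher on high fat feed at low vitC (0.55 ± 0.15, SE, adjusted p = 0.00415), and CLEC4A, below 1 CPM, was lower there (adjusted p = 0.0348).

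The effect of vitC was compared within each feed. On low fat feed, HFL/LFL against HFL/LFH, no member passed with edgeR, against 0.219% of all symbols, while DESeq2 called 5 (S100A8, S100A9, CASP12, LY75 and LY75.CD302) and limma 0. At an unadjusted p under 0.05 edgeR gave 20 members that were higher at low vitC and 1 that was lower, against 6.57% and 4.4% of all symbols. The median log2 fold change was 0.46 over the members and 0.005 over all symbols. S100A8 had the smallest p. The 6 HFL/LFL animals had 0.620, 0.763, 0.912, 6.41, 6.50 and 8.29 CPM, and the 6 HFL/LFH animals lay between 0 and 0.824 CPM. Thus 3 animals were far above the HFL/LFH animals and the other 3 were within or near their range, and the log2 fold change was 3.18 ± 0.76 (SE, adjusted p = 0.0552).

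The same 3 animals, 49, 53 and 68, had the highest S100A9 of the group, at 10.1, 13.9 and 5.05 CPM, where the other 3 HFL/LFL animals were between 1.19 and 2.18 CPM, while HFL/HFH animal 30 reached 12.3 CPM. They also had the highest MYD88 of the group, at 142, 139 and 133 CPM, against 76.3 to 99.2 CPM in the other 3. However, HFL/LFH animal 3 had 142 CPM of MYD88 as well, with 0.0942 CPM of S100A8. None of the 5 measured neutrophil markers passed the test in this comparison, although their median log2 fold change was 0.87. Their sums were 135 to 192 CPM in HFL/LFL and 108 to 259 CPM in HFL/LFH. The part of these cells in the values of S100A8 and S100A9 was not tested. CASP12 was at 0.749 to 8.15 CPM (median 3.08) in HFL/LFL and at 0.53 to 2.08 CPM (median 1.04) in HFL/LFH (1.59 ± 0.41, SE, adjusted p = 0.0682), and LY75 at 1.37 to 8.38 CPM (median 4.25) in HFL/LFL and at 0.95 to 2.78 CPM (median 1.57) in HFL/LFH (1.45 ± 0.38, SE, adjusted p = 0.0738). MSR1 was at 61.4 to 126 CPM (median 109) in HFL/LFL and 42.9 to 75.4 CPM (median 57.1) in HFL/LFH (0.74 ± 0.21, SE, adjusted p = 0.128). In each the HFL/LFL animals spread from the HFL/LFH range upwards. Animal 53, high in S100A8, was the lowest HFL/LFL animal in CASP12 and LY75. Left out in turn, an animal brought between 0 and 4 members past the threshold: 4 without HFL/LFL animal 17 (S100A8, MSR1, LY75 and LY75.CD302), 3 without HFL/LFL animal 53 (CASP12, LY75 and LY75.CD302), 2 without HFL/LFH animal 43 (S100A8 and S100A9), S100A8 without HFL/LFL animal 13 or 44, and CLEC4A.2 without HFL/LFH animal 58. The leukocyte markers summed to 155 to 248 CPM in HFL/LFL and 99.2 to 206 CPM in HFL/LFH. None of the 3 passed, with a median log2 fold change of 0.42, and their part in the members' values was not tested. S100A8, CASP12, LY75, LY75.CD302, MSR1 and TLR8 are on the study's own list of differentially expressed genes, chosen on these animals, and are no independent evidence.

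On high fat feed, HFL/HFL against HFL/HFH, no member passed with edgeR, DESeq2 or limma, against 0.0129% of all symbols in edgeR, and 3 had an unadjusted p under 0.05, against 3.37% of all symbols. The values with the smallest p were -0.26 ± 0.12 for CASP6, 0.43 ± 0.19 for MSR1, 0.50 ± 0.23 for FCER1G, 0.54 ± 0.29 for LY86 and -0.28 ± 0.16 for NOD1 (SE, adjusted p = 0.9997 in each). HFL/HFL against HFH compared low with high vitC over all 32 weeks of high fat feed. Again no member passed with edgeR, against 0.271% of all symbols, and 10 had an unadjusted p under 0.05, against 17.3%. NOD1 was at 9.78 to 17 CPM (median 13.5) in HFL/HFL and 12.4 to 25.3 CPM (median 20.4) in HFH (-0.60 ± 0.15, SE, adjusted p = 0.0542) and FCER1G at 99.8 to 202 CPM (median 132) in HFL/HFL and 37.2 to 149 CPM (median 77) in HFH (0.82 ± 0.21, SE, adjusted p = 0.0746). DESeq2 and limma called both of them. NOD1 passed with edgeR without HFH animal 9, 47 or 88 or HFL/HFL animal 29, 34 or 90, and FCER1G without HFH animal 9 or 88 or HFL/HFL animal 29, with adjusted p values down to 0.0138 and 0.0103.

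Animals switched to low fat feed were compared, after 16 weeks on it, with LFH, which had never had high fat feed. HFL/LFH also differed from LFH in vitC during the first 16 weeks, and HFL/LFL during all 32 weeks. Earlier high fat feed and low vitC therefore cannot be told apart in these comparisons. Both comparisons share the 8 LFH animals. In HFL/LFH, at high vitC, no member passed with edgeR, against 0.361% of all symbols, and 8 had an unadjusted p under 0.05, against 10.4%. Limma called 0 members. DESeq2 called SIGLEC14 and SIGLEC5, whose shared counts were at 1.27 to 5.4 CPM (median 2.78) in HFL/LFH and 0.683 to 3.63 CPM (median 1.36) in LFH (1.10 ± 0.29, SE, adjusted p = 0.075 in edgeR). Without LFH animal 64 or HFL/LFH animal 3 the pair also passed with edgeR, with an adjusted p down to 0.00451. The next smallest p values belonged to NLRC4 (-1.13 ± 0.41), CLEC12A (0.83 ± 0.35) and MYD88 (0.27 ± 0.12), with adjusted p of 0.288, 0.371 and 0.438. The value of NLRC4 rested on LFH animal 79, and without it was -0.654 (adjusted p = 0.625). For MYD88, HFL/LFH animal 3 was at 142 CPM and the other HFL/LFH animals were at 77.6 to 99.6 CPM.

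In HFL/LFL, at low vitC, 14 members passed against LFH, all of them higher, against 7.91% of all symbols called and 4.43% called higher. The median log2 fold change was 0.63 over the members and 0.03 over all symbols, and no member separated the groups without overlap, against 1.39% of all symbols. They were SIGLEC14, SIGLEC5, SIGLEC1, TLR1, TLR7, MYD88, S100A8, S100A9, MSR1, MS4A2, CLEC5A, CLEC4A.2, LY75 and LY75.CD302. SIGLEC14 was at 3.6 to 9.4 CPM (median 5.73) in HFL/LFL against 0.683 to 3.63 CPM (median 1.36) in LFH (1.98 ± 0.29, SE, adjusted p = 1.16e-05), with a single LFH animal at the level of the lowest HFL/LFL animal. TLR1 differed by 1.21 ± 0.28 (SE, adjusted p = 0.00496) and S100A8 by 2.67 ± 0.66 (SE, adjusted p = 0.00958). SIGLEC1 was at 7.04 to 50.6 CPM (median 19.9) in HFL/LFL (1.44 ± 0.36, SE, adjusted p = 0.00958) and lost its call without HFL/LFL animal 49 (adjusted p = 0.0728). CLEC5A differed by 0.91 ± 0.24 (SE, adjusted p = 0.0167). MYD88, which is not higher in HFH, differed by 0.46 ± 0.12 (SE, adjusted p = 0.0167). CLEC4A.2 was at least 2.1-fold higher against the floor.

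Several of these calls depended on single animals. The count of members fell to 8 when the fit held only these 2 groups, and also without HFL/LFL animal 49, where the remaining calls were SIGLEC14, SIGLEC5, TLR1, S100A8, CLEC5A, CLEC4A.2, LY75 and LY75.CD302, and rose to 20 without LFH animal 64. MYD88 lost its call without HFL/LFL animal 49 or 53 (adjusted p up to 0.0807), MS4A2 without 49 or 68 (0.073) and LY75 without 68 (0.0609). TLR7 (adjusted p = 0.0321) lost it without LFH animal 25, 27 or 79 or HFL/LFL animal 13, 44 or 49, and MSR1 (adjusted p = 0.0329) without LFH animal 5, 25 or 46 or HFL/LFL animal 13, 44, 49 or 68. S100A9 (adjusted p = 0.043) lost it without LFH animal 5, 25, 27, 46, 79 or 92 or HFL/LFL animal 49, 53 or 68. The highest adjusted p was 0.118 for TLR7, 0.0989 for MSR1 and 0.155 for S100A9.

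Other members were not called against LFH in either group switched to low fat feed. In HFL/LFL, LY6E and CLEC9A had an unadjusted edgeR p of 0.035 and 0.0245. S100A10.1 differed from LFH by 0.09 ± 0.27 in HFL/LFH and 0.27 ± 0.27 in HFL/LFL (SE), MRC1 by -0.23 ± 0.13 and -0.04 ± 0.13, LY6E by 0.06 ± 0.16 and 0.35 ± 0.16, CASP8 by 0.00 ± 0.14 and -0.04 ± 0.14 and CLEC9A by -0.05 ± 0.18 and 0.42 ± 0.18, none of which passed. Among the markers, LAPTM5 was 1 of 3 leukocyte genes called higher in HFL/LFL, and TREM2 and LGALS3, 2 of 3 lipid-associated macrophage markers, were called higher against LFH in both HFL/LFL and HFL/LFH, with medians of 3.21 and 2.20 on the log2 scale and sums of 121 to 254 CPM in HFL/LFL, 56.3 to 146 CPM in HFL/LFH and 23.9 to 73 CPM in LFH. In HFL/LFL 2 of 4 B cell markers, CD79B and MS4A1, were also called higher (median log2 fold change 0.63), and so was EPCAM, 1 of 3 cholangiocyte markers (median 0.98). None of 5 neutrophil markers passed in either group. Of the 19 other pathway genes, TRAF3 was higher in HFL/LFL (0.66, adjusted p = 0.0045) and none passed in HFL/LFH. The part of the marked cells in the members' values was not tested.

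**Figure D4:**
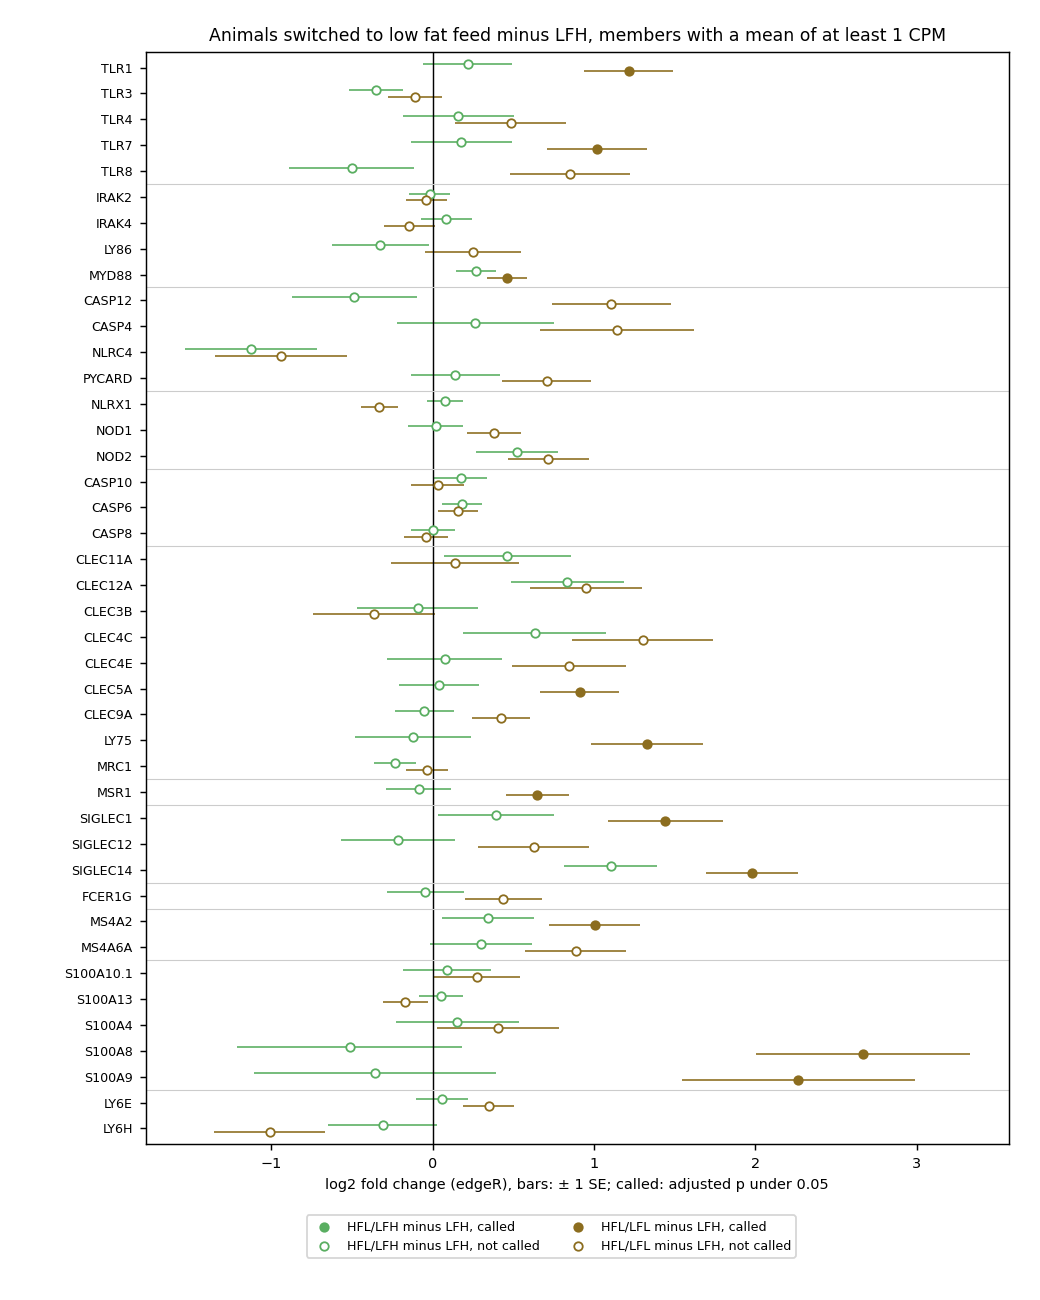
Log2 fold change against LFH (horizontal axis) of HFL/LFH (green) and HFL/LFL (brown) for members with a mean of at least 1 CPM (vertical axis), with bars of 1 SE. Filled points passed an adjusted p of 0.05. All filled points belong to HFL/LFL and lie above 0, and both comparisons use the same 8 LFH animals.

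**Figure D5:**
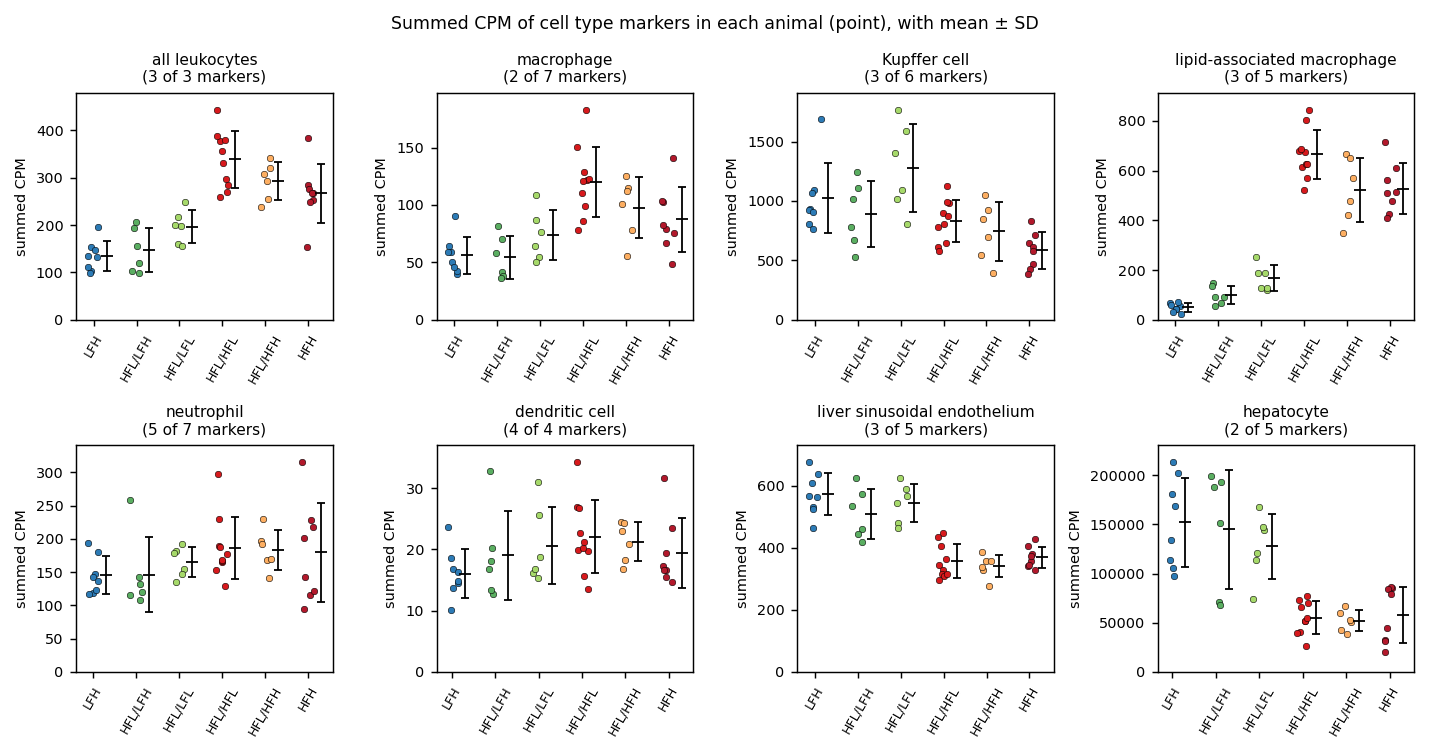
Summed CPM (vertical axis, linear from 0) of cell type markers in each animal (points), with mean and SD of the group beside them. Leukocyte and lipid-associated macrophage markers are higher and endothelial and hepatocyte markers lower in the high fat groups. For the lipid-associated macrophage markers, HFL/LFL and HFL/LFH lie between LFH and the high fat groups, and HFL/LFH overlaps LFH.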

How the data were processed

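Liver RNA of 44 guinea pigs was analysed, 1 library each. The authors trimmed reads with Trimmomatic 0.38.0, aligned them with HISAT2 2.1.0 to the Cav.Por.3.0 build, quantified them with StringTie 2.1.1 and named genes by human orthologues. The deposited whole-number counts per symbol are not normalized. How StringTie output became counts is not given in the sources used here. The authors' variance-stabilized values (DESeq2, log2 scale) were deposited too, and served to define the members and as an alternative. Total counts were 21133807 to 35427724 per animal.

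Counts were fitted with edgeR 4.0.16 in R 4.3.3 (TMM, quasi-likelihood F test, a mean per group, all animals), over 7750 symbols with a total of at least 200, with Benjamini-Hochberg adjustment within each of 9 comparisons and 0.05 as the threshold. All tests were two-sided. The SE was taken from the log2 fold change and its F value. Members and gene lists were chosen with earlier results of these data known. Members named have a mean of at least 1 CPM and are among the 3 smallest p of their role in HFH against LFH, the 5 smallest p (or calls) of the other comparisons, the 5 most negative calls, or a fixed set of defining genes. Other members are mentioned by count or to complete a list, chosen after their values were seen. Markers of 13 cell types served as values beside results. All marker lists were: hepatocyte, macrophage, Kupffer cell, lipid-associated macrophage, neutrophil, B cell, T cell, dendritic cell, mast cell or basophil, sinusoidal endothelium, cholangiocyte, stellate cell and leukocyte. Other settings tried were normalization by RLE or upper quartiles, filterByExpr or no filter in place of the minimum, 1 row for symbols that share their counts, a fit of the compared groups alone, DESeq2 1.42.0, limma 3.58.1 on the deposited log2 values, and each animal left out. A single member, included in the counts, and a marker gene are not reported here. No sequence or coordinate was used: the annotation table given is of mCavPor4.1, not of the authors' build.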

Additional observations from a re-analysis of the deposited data

Results flagged for a closer look

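The values of 52 profiles, symbols with the same counts taken once, were examined within each group of 6 to 10 animals, 311 sets in all (CLEC2L was at 0 in every HFL/LFH animal), for an animal whose distance to its nearest neighbour was unusually large for the range of the group (Dixon's 95% limits). In 31 sets an animal stood apart. The limits allow about 1 in 20 sets for normally distributed values, which CPM from low counts need not be. The number of sets is therefore not compared with chance. The 31 sets involve 22 animals and 24 members. No explanation was tested.

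In LFH, animal 64 stood apart with 87.8 CPM of FCER1G, 3.63 CPM of SIGLEC14 and 13 CPM of TLR8, animal 79 with 27.9 CPM of NLRC4 and animal 92 with 5.47 CPM of CLEC4E. In HFL/LFH, animal 33 had 73.3 CPM of LY6E and 13.7 CPM of CLEC11A, animal 3 had 142 CPM of MYD88, animal 43 had 4.08 CPM of S100A9 and animal 58 had 7.10 CPM of TLR8. In HFL/LFL, animal 44 had 28.6 CPM of IRAK4, 12.5 CPM of MS4A6A and 41.0 CPM of S100A10.1. In HFL/HFL, animal 90 had 68.5 CPM of CASP10, animal 81 had 25.6 CPM of CLEC5A and animal 75 had 13.3 CPM of PYCARD. In HFL/HFH, animal 20 had 66.7 CPM of CASP10, animal 15 had 25.2 CPM of MS4A2 and animal 30 had 12.3 CPM of S100A9. In HFH, animal 88 had 4.75 CPM of CASP4 and animal 61 had 13.8 CPM of SIGLEC12. All of these were the highest of their group, and MS4A6A in HFH animal 18, with 13.8 CPM, was the lowest.

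The remaining sets belong to members near or under 1 CPM. Again as the highest of their group, LFH animal 64 had 0.572 CPM of CLEC4A.1 and animal 56 had 0.860 CPM of LY6G5C. HFL/HFL animal 90 had 1.04 CPM of LY6G6F, and HFL/LFL animal 68 had 1.02 CPM of S100A1. In 5 sets the highest animal was the only one of its group above 0. These were 0.263 CPM of CLEC2L and 0.0438 CPM of CLEC4A.2, a single count, in LFH animal 5, 0.375 CPM of CLEC2L in HFL/LFL animal 53, 0.362 CPM of CLEC4A.2 in HFL/LFH animal 58 and 0.162 CPM of LY6G5C in HFL/LFL animal 49.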

How the results depend on the processing

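The counts of members called in the 3 feed comparisons stayed within 1.5 times of 43, 38 and 25 under every setting. Between HFL/LFL and HFL/LFH the count was 0 in each setting except DESeq2, which gave 5, and between HFL/LFH and LFH 0 except 2 with DESeq2. Between HFL/LFL and LFH it was 8 with only the groups compared, and between HFL/HFL and HFH it was 1 with RLE and with upper-quartile normalization, 2 with DESeq2 and 2 with limma. The cause was not tested. Left out in turn, the animals gave 39 to 44 members in HFH against LFH, 32 to 37 in HFL/HFH against HFL/LFH, 22 to 26 in HFL/HFL against HFL/LFL, 0 to 4 in HFL/LFL against HFL/LFH, 0 to 2 in HFL/LFH against LFH, 8 to 20 in HFL/LFL against LFH and 0 to 2 in HFL/HFL against HFH. The count stayed at 0 in HFL/HFL against HFL/HFH and in the interaction. Values of named members that were called kept their call in 752 of 770 checks under other settings and in 1344 of 1414 with an animal left out, and none reversed. No normalization moved the median of all symbols by more than 0.0676 on the log2 scale. No paired analysis was possible because each animal was in 1 group and no number pairs animals across groups. Members with a mean under 1 CPM rest on few counts, and their fold changes depend on the floor.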
